A study of Mus musculus with 6 samples.

Results

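The miR-199 and miR-214 miRNAs were measured in mouse lung on 6 arrays. The untreated WT group was 3 mice given saline, and the WT-BLM group was 3 mice given 1.5 U/kg of bleomycin (BLM), an antitumor agent whose lung injury serves as a model of fibrosis. All mice were of the strain C57Bl6, and all lungs were taken at day 21. Each array held the RNA of 1 mouse, stained with the dye Cy3. The labels give neither age nor sex. The study's methods state the dose, the day, injection into the trachea and an age range for the mice, without naming the sex. A single dose and day of BLM limit the model to that stage of injury. The miRNAs were selected by their array names mmu-miR-199a-5p, mmu-miR-199b-5p, mmu-miR-199a-3p and mmu-miR-214-3p, written here without the species prefix. The rule used names and not values, but earlier results of these data were known when it was set. These are 4 of the 1963 mature mouse miRNA probes on the array. The miR-199a-3p probe carries the accessions of both miR-199a-3p and miR-199b-3p, so no separate probe exists for miR-199b-3p. All 4 probes were detected on all 6 arrays.

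A miRNA is cut from a hairpin precursor, whose left arm gives the 5p and right arm the 3p strand, and it silences mRNAs that pair with its seed, bases 2 to 8. The miR-199 and miR-214 hairpins are transcribed in mesenchymal cells such as fibroblasts and smooth muscle, in large part from the long non-coding RNA Dnm3os. In the lung they are known from work on myofibroblasts, where miR-199a-5p acts on caveolin-1, a membrane protein that restrains TGFβ signaling. Lung tissue holds many cell types, and the cell of origin was not measured here.

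The sequences below are the targets that the array file gives for each probe, 5′ to 3′, with the seed in capitals. They are shown because near-identical sequences decide which RNAs a probe can bind. The last line is miR-761, the only other probe on the array that shares a seed with any of these miRNAs.
miR-199a-5p: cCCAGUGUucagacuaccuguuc
miR-199b-5p: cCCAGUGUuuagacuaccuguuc
miR-199a-3p: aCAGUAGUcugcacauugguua
miR-214-3p: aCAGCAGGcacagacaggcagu
miR-214-5p: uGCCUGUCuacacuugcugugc
miR-761: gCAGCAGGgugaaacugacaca
The miR-199a-5p and miR-199b-5p targets have the same seed and are identical at 22 of 23 bases, with the substitution C10U counted from the 5′ end and with the base of miR-199a-5p first. Each probe may therefore bind the other miRNA, and how far it did was not tested. Within bases 2 to 8, miR-199a-3p and miR-214-3p share 5 of 7 bases and differ by U5C and U8G. The miR-761 probe was detected on 0 of 6 arrays.

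Exact matches of the probe targets in the RefSeq miRNA table of the assembly GRCm38.p6 placed miR-199a-5p at chr1:162217844-162217866 on the plus strand in Mir199a-2 and at chr9:21496537-21496559 on the minus strand in Mir199a-1. The miR-199a-3p target matched chr1:162217883-162217904, chr9:21496498-21496519 and, as miR-199b-3p, chr2:32318524-32318545 on the plus strand in Mir199b. The miR-214-3p target matched chr1:162223438-162223459 and miR-214-5p chr1:162223397-162223418, both on the plus strand in Mir214. No mature match was listed for miR-199b-5p. In the RefSeq gene table of the same assembly, Mir199a-2 and Mir214 both lie within the lncRNA Dnm3os, which lies within Dnm3, while Mir199a-1 lies within Dnm2 and Mir199b within Dnm1. The 4 hairpins follow, from the same table, with the array targets in capitals, to show that the 3p target is the same in all 3 miR-199 hairpins.
Mir199a-1: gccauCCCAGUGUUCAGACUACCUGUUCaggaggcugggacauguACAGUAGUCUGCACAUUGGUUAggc
Mir199a-2: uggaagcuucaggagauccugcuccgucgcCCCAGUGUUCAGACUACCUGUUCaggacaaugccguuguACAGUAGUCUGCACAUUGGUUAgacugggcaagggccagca
Mir199b: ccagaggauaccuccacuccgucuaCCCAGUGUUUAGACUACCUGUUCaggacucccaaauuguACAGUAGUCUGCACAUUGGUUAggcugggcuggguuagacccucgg
Mir214: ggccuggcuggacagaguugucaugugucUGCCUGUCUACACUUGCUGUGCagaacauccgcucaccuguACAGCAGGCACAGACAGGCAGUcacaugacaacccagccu

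Each probe stood on 2 spots of the array. The spot intensities were corrected for background with the normexp method of limma (offset of 50), normalized between arrays by quantiles on the log2 scale, and averaged over both spots. Detection required a mean of both spots over the median of the 800 empty spots plus 3 SD, and testing was limited to the 275 probes that met this on 3 or more arrays. The arrays of untreated WT mouse 3 and WT-BLM mouse 1 stand apart. The SD of their empty spots was 59.3 and 45.2, against 8.01 to 18.1 on the others, and the fewest probes were detected on them, 132 and 176. Groups of 3 mice limit the precision, and with these numbers an exact permutation p (two-sided) cannot fall below 0.10.

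The level of miR-199a-5p was 1.32-fold higher in WT-BLM than in untreated WT lungs, with a 95% confidence interval from 0.916- to 1.90-fold, and the difference did not pass the test. The log2 fold changes of miR-199b-5p, miR-199a-3p and miR-214-3p lay between -0.14 and -0.088 and did not pass either. The sign of all 3 turned under scaling to the 75th percentile of all probes, which also moved the median of all tested miRNAs from 0.04 to 0.13. Relative to that median, miR-199a-3p turned from -0.13 to 0.064, while miR-199b-5p and miR-214-3p were below it with either scaling. None of the 4 miRNAs had an adjusted p under 0.05 in limma, where 0% of all 275 miRNAs had, and none had an unadjusted p under 0.05, where 5 miRNAs or 1.82% had. In whole lung, fewer cells of a type and less RNA per cell cannot be told apart.

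The log2 intensity of miR-199a-5p of mice 1, 2 and 3 was 9.97, 10.07 and 9.63 for untreated WT, then 10.45, 10.23 and 10.18 for WT-BLM. Every WT-BLM mouse was thus above every untreated WT mouse. Over all 275 miRNAs, 11 or 4% were higher in WT-BLM lungs without overlap, and 13 or 4.73% had no overlap in either direction. The means were 9.89 ± 0.23 (SD, n = 3) and 10.29 ± 0.14, a log2 fold change of 0.40 (standard error 0.23, adjusted p = 1 in limma; exact permutation test, two-sided p = 0.10). This change ranked number 35 of 275 from the highest. The study lists miR-199a-5p among the miRNAs it selected on these same mice, so the direction is not independent evidence.

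The lowest untreated WT value was the mean of discordant spots. In untreated WT mouse 3, the spots of miR-199a-5p lay 318 and 739 over the median of the empty spots. On the log2 scale these spots were 1.26 apart, against 0.10 to 0.62 on the other arrays. Of the miRNA spots next to the dim spot, 2 belonged to tested probes and 0 of these differed from their partner by more than 1. With the brighter spot kept wherever the spots of a probe were more than 1 apart, the log2 fold change was 0.19 (standard error 0.20) and the groups overlapped. Without untreated WT mouse 3 it was 0.27 and the groups did not overlap, and without WT-BLM mouse 1 it was 0.32. Without both of these mice it was 0.19. The second spots alone gave 0.22, with overlap, and the first spots alone 0.58, without overlap. The groups also overlapped without normalization, under cyclic loess and under scaling to the 75th percentile. The log2 fold change of miR-199a-5p stayed above 0 in all of these cases.

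**Figure D1:**
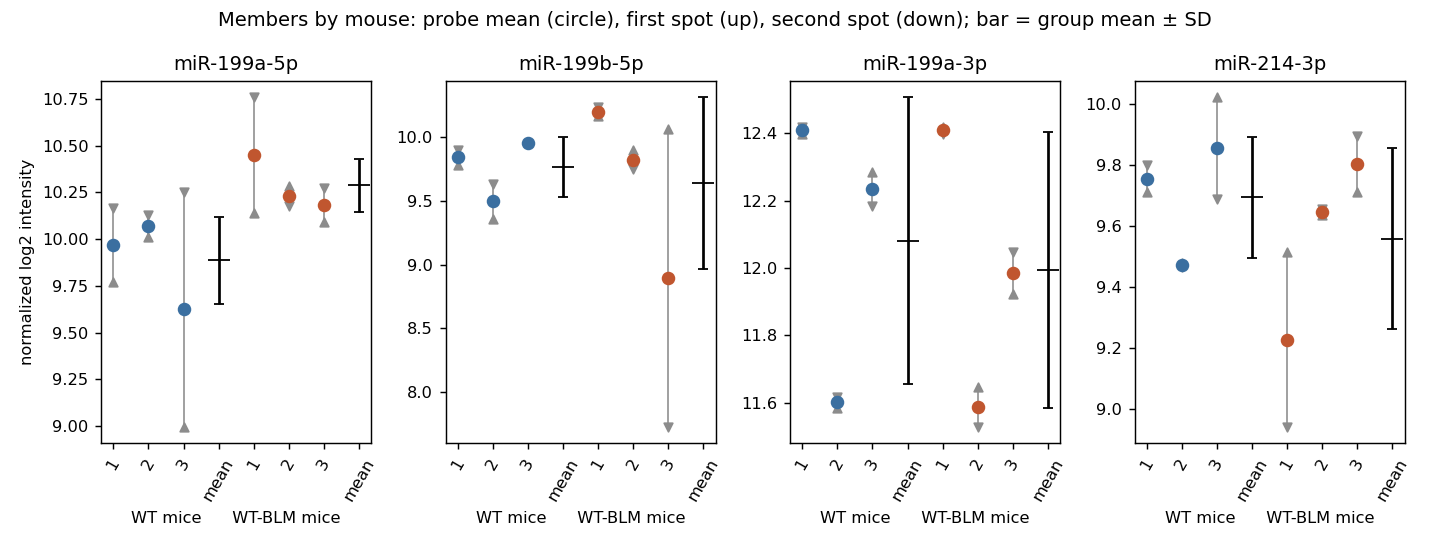
Normalized log2 intensity of the 4 miRNAs in each mouse. Circles are the mean of both spots, upward and downward triangles the first and second spot, and black bars the group mean ± SD (n = 3 mice). All WT-BLM circles of miR-199a-5p lie above the untreated WT circles, and the dim second spot of miR-199b-5p in WT-BLM mouse 3 (7.73) lies far below its partner (10.06).

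The miR-199b-5p strand, which differs from miR-199a-5p at base 10 only, had log2 intensities of 9.84, 9.50 and 9.95 (untreated WT) against 10.20, 9.82 and 8.89 (WT-BLM). WT-BLM mouse 1 was the highest and WT-BLM mouse 3 the lowest of all 6, and the groups overlapped. The means were 9.76 ± 0.24 (SD, n = 3) and 9.64 ± 0.67, a log2 fold change of -0.12 (standard error 0.36, adjusted p = 1 in limma). The confidence interval of the fold was 0.513 to 1.64.

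The low value of WT-BLM mouse 3 came from a discordant pair of spots. The first spot read 935 above the empty spots and the second 116, which is 2.33 apart on the log2 scale, while the spots of the probe were 0.018 to 0.28 apart on the other arrays. The deposited spread of the dim spot, 9.80% of its brightness, was inside the range of 5.62% to 13.9% over the 12 spots of this probe. Of the adjacent miRNA spots, 2 belonged to tested probes and 0 of these were discordant. With the brighter spot kept for such pairs the log2 fold change became 0.26 (standard error 0.22), from the first spots alone 0.34 and without WT-BLM mouse 3 it became 0.25. Its sign also turned in the authors' values.

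The 3p arm, miR-199a-3p, can come from all 3 miR-199 hairpins. Its log2 intensity in mice 1, 2 and 3 read 12.41, 11.60 and 12.23 without BLM, and 12.41, 11.59 and 11.99 with BLM. In both groups mouse 1 was the highest and mouse 2 the lowest, and whether the numbers pair the mice is not known. The means were 12.08 ± 0.43 (SD, n = 3) and 11.99 ± 0.41, a log2 fold change of -0.088 (standard error 0.32, adjusted p = 1 in limma), with a confidence interval of the fold from 0.563 to 1.57. Both spots of this probe lay within 0.12 of each other on every array.

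The spread between mice in miR-199a-3p was wider after normalization than before. Before it, the 12 spots read 3375 to 4798 above the empty spots and the log2 values spanned 0.41 over the 6 mice. After quantile normalization they spanned 0.82, and the pooled SD within groups was 0.42 in place of 0.15. For miR-199a-5p the normalization acted the other way, with a pooled SD of 0.19 in place of 0.47. Over all tested miRNAs the median pooled SD was 0.37 after and 0.41 before normalization. Without normalization the log2 fold change of miR-199a-3p was 0.13 (standard error 0.24).

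The miR-214-3p strand, cut from the hairpin that shares the Dnm3os transcript with Mir199a-2, had untreated WT values of 9.76, 9.47 and 9.86 on the log2 scale. Its WT-BLM values were 9.23, 9.65 and 9.80. The lowest mouse was WT-BLM mouse 1, where the spots read 622 and 380 above the empty spots, and the groups overlapped. The means were 9.70 ± 0.20 (SD, n = 3) and 9.56 ± 0.30, a log2 fold change of -0.14 (standard error 0.25, adjusted p = 1 in limma). The confidence interval of the fold was 0.611 to 1.36. Leaving out WT-BLM mouse 1 gave 0.030, leaving out untreated WT mouse 3 gave -0.055, and leaving out both gave 0.11.

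The opposite strand of the same hairpin, miR-214-5p, was dim. It was detected in 0 of 3 mice without BLM and in 2 of 3 with BLM, mice 2 and 3. It thus did not reach the minimum for testing. Its spots read between -10.5 and 68.4 relative to the empty spots. The cut for detection rises with the SD of the empty spots on each array, so these counts do not compare signal between the groups. WT-BLM mouse 3 was detected at 24.8 and 29.2, where this SD was 8.01. WT-BLM mouse 1 was not detected at 42.4 and 44.4, where it was 45.2. In untreated WT mouse 1 (SD 14.3) each spot was brighter than its counterpart in WT-BLM mouse 3, without detection. The untreated WT log2 values were 6.61, 6.55 and 6.19, and all were under the WT-BLM values of 6.66, 6.69 and 6.64. In the authors' values, 27, 20 and 5 against 39, 27 and 27, the groups overlapped. No fold is given, since the WT-BLM mean lay under the mean of the lowest detected signals of the untreated WT arrays. The probes of the listed miR-3120 arms were not on this array.

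**Figure D2:**
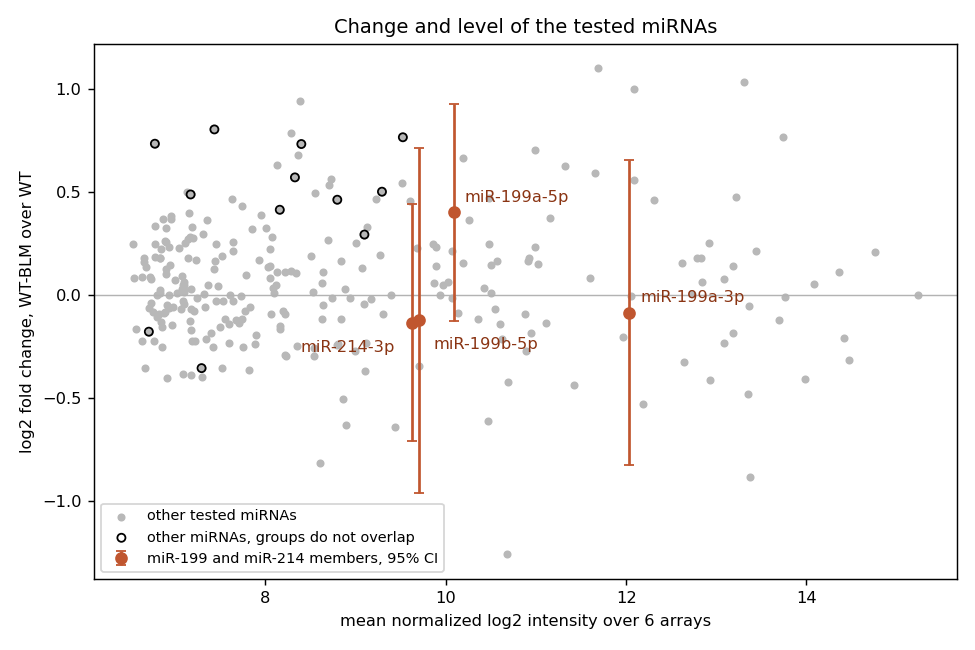
Log2 fold change (WT-BLM over WT) against mean log2 intensity for the 275 tested miRNAs. Orange points with bars are the 4 miRNAs with 95% confidence intervals, and open circles are other miRNAs whose groups do not overlap. All 4 intervals include 0.

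Differences between these miRNAs within the same mouse were compared to see whether the arms moved by unequal amounts. There were 6 pairs, and the shift of none passed the test (exact permutation tests, adjusted p of 0.80 to 1 over the 6 pairs). The difference of miR-199a-5p from miR-199a-3p, which Mir199b can supply as well, in mice 1, 2 and 3 was -2.44, -1.53 and -2.61 (log2, untreated WT) against -1.96, -1.36 and -1.80 (WT-BLM). The WT-BLM mean was higher by 0.49, with SDs of 0.58 and 0.31 (n = 3), and the groups overlapped. The levels of different probes are not comparable, so only the shift of these differences has a meaning.

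The difference of miR-199a-5p from miR-199b-5p shifted by 0.52 (exact permutation test, two-sided p = 0.40). When the brighter spot was kept for discordant pairs this shift was -0.074. The difference of miR-199a-5p from miR-214-3p shifted by 0.54 (exact permutation test, two-sided p = 0.30). For the pair miR-199b-5p and miR-214-3p the within-mouse difference was 0.084, 0.024 and 0.094 without BLM, and 0.97, 0.18 and -0.91 with it. The shift of the means was 0.011, while the SD was 0.038 in untreated WT and 0.94 in WT-BLM mice (n = 3). The extremes were WT-BLM mouse 1, where miR-214-3p was lowest, and WT-BLM mouse 3, where the spots of miR-199b-5p were discordant. The difference in SD was not tested.

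The authors' own normalized intensities, which are linear and rounded, put untreated WT miR-199a-5p at 907, 954 and 729, and WT-BLM miR-199a-5p at 1169, 1116 and 989. The groups did not overlap in these values either (exact permutation test, two-sided p = 0.10), with means of 863 ± 119 (SD, n = 3) and 1091 ± 92.5. For miR-199b-5p the values were 762, 634 and 851 against 1040, 799 and 896. WT-BLM mouse 3 was thus inside the range of the others there, and the groups overlapped, with means of 749 ± 109 and 912 ± 121 (SD, n = 3). The values of miR-199a-3p were 4254, 2971 and 4776 against 4167, 3140 and 4168. Those of miR-214-3p were 695, 626 and 780 against 504, 696 and 698, again with WT-BLM mouse 1 lowest.

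**Figure D3:**
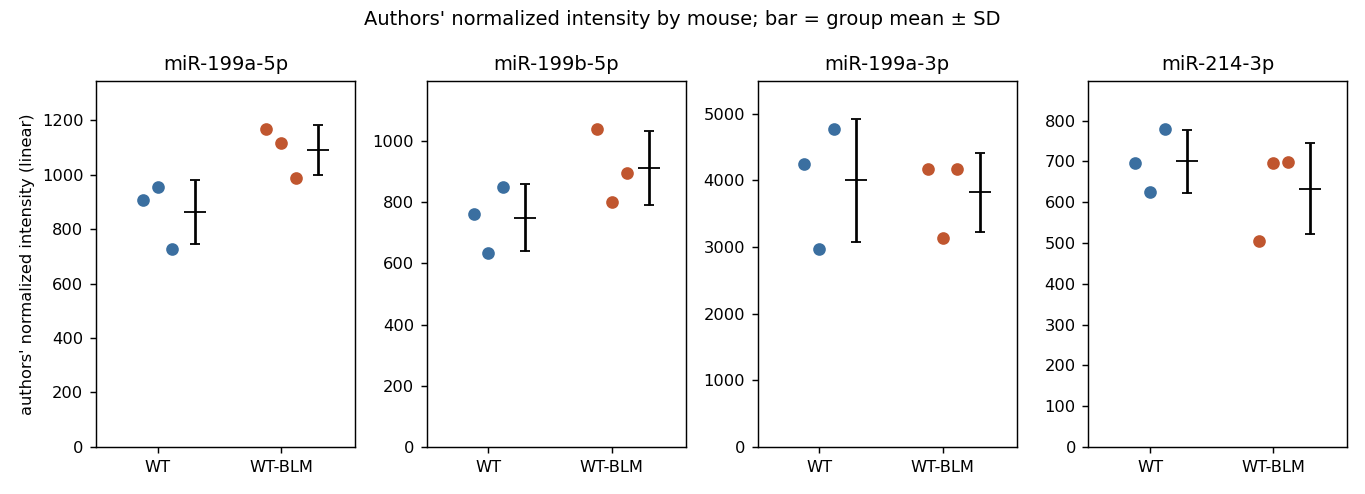
The authors' normalized intensity of the 4 miRNAs on a linear scale, 1 point per mouse, with group mean ± SD (n = 3). The WT-BLM mice lie at 989 to 1169 for miR-199a-5p and the untreated WT mice at 729 to 954, while the groups overlap for the other 3 miRNAs.

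Under every processing alternative the log2 fold change of miR-199a-5p was positive, between 0.19 and 0.58. Its unadjusted p in limma passed 0.05 in 1 alternative, without a filter on dim probes, where all 1963 probes were fitted and the adjusted p was 0.97. The values of miR-199b-5p ran from -0.59 to 0.34, those of miR-199a-3p from -0.33 to 0.19 and those of miR-214-3p from -0.32 to 0.11. With quantile normalization the 275 miRNAs had a median of 0.04, and scaling to the 75th percentile shifted it. It became -0.22 with the percentile of the probes detected on all arrays and 0.13 with that of all probes. Relative to that median, under both scalings, miR-199a-5p was at 0.43, miR-199a-3p at 0.064, miR-214-3p at -0.096 and miR-199b-5p at -0.11. Both scalings subtract a single constant from each array, so these values are equal by construction. They are also the values without normalization.

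**Figure D4:**
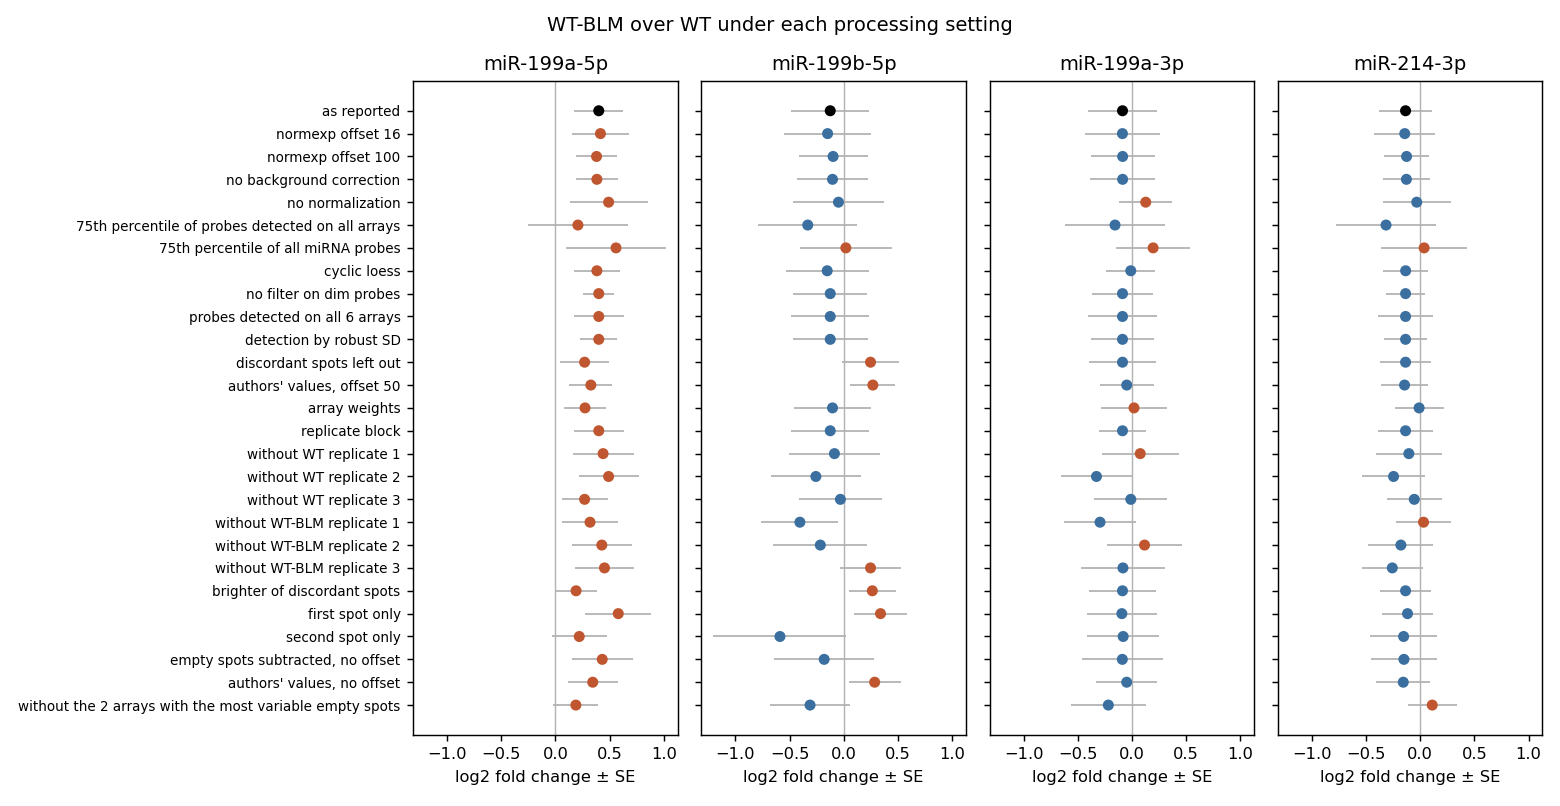
Log2 fold change (WT-BLM over WT, ± standard error) of the 4 miRNAs under each processing setting. Black points are the values as reported, orange points are above 0 and blue points below 0. The points of miR-199a-5p stay above 0 throughout, from 0.19 to 0.58, while those of the other 3 lie on both sides.

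Other miRNAs known from mesenchymal cells were described as a list of 8. Of these, 7 were tested, 3 with a positive and 4 with a negative log2 fold change, and 0 passed the test. The median was -0.0078, against 0.04 over all 275 miRNAs, of which 155 or 56.4% had a positive value. It was 0.18 against 0.063 without normalization and 0.25 against 0.13 under scaling to the 75th percentile of all probes. The values ran from -0.88 for miR-143-3p, a miRNA of smooth muscle, to 0.59 for miR-99a-5p. The level of miR-143-3p was 14.01, 13.53 and 13.90 without BLM, and 11.64, 13.55 and 13.59 with BLM. WT-BLM mouse 1 was low (standard error of the log2 fold change 0.52, adjusted p = 1 in limma). For miR-145a-5p, also on this list, the log2 fold change was -0.054.

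A list of 10 miRNAs linked to fibrosis had 9 tested, 6 with a positive and 2 with a negative value, and miR-26a-5p at 0. Quantile normalization gave this bright probe only 15.36 or 15.01 on each array, so it could hardly show a change. The list had a median of 0.14, against 0.04 over all tested miRNAs, and 0 past the adjusted test. No common direction was set for its members, so this median is not a measure of fibrosis. Leaving out single mice moved it between 0.029, without untreated WT mouse 2, and 0.35, without WT-BLM mouse 2. The median of all tested miRNAs was then 0.10 and 0.042. The list median was also 0.053 without WT-BLM mouse 3, against 0.025, and 0.21 without untreated WT mouse 3, against -0.0074. The highest was miR-29c-3p, a repressor of collagen mRNAs, at 0.71 (standard error 0.38). The lowest was miR-101a-3p at -0.12. The p53-induced miR-34a-5p had untreated WT values of 8.24, 7.97 and 7.92 and WT-BLM values of 8.85, 8.39 and 8.60, without overlap. Its log2 fold change of 0.57 had a standard error of 0.23 and an adjusted p of 1 in limma, and the study selected it on these same mice. The value of miR-21a-5p, which fibroblasts raise in response to TGFβ, was 0.14 (standard error 0.35). The 4 tested miRNAs of the miR-199 and miR-214 loci had a median of -0.11, against 0.04 over all tested miRNAs. It was 0.047 against 0.063 without normalization and 0.12 against 0.13 under scaling to the 75th percentile of all probes.

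**Figure D5:**
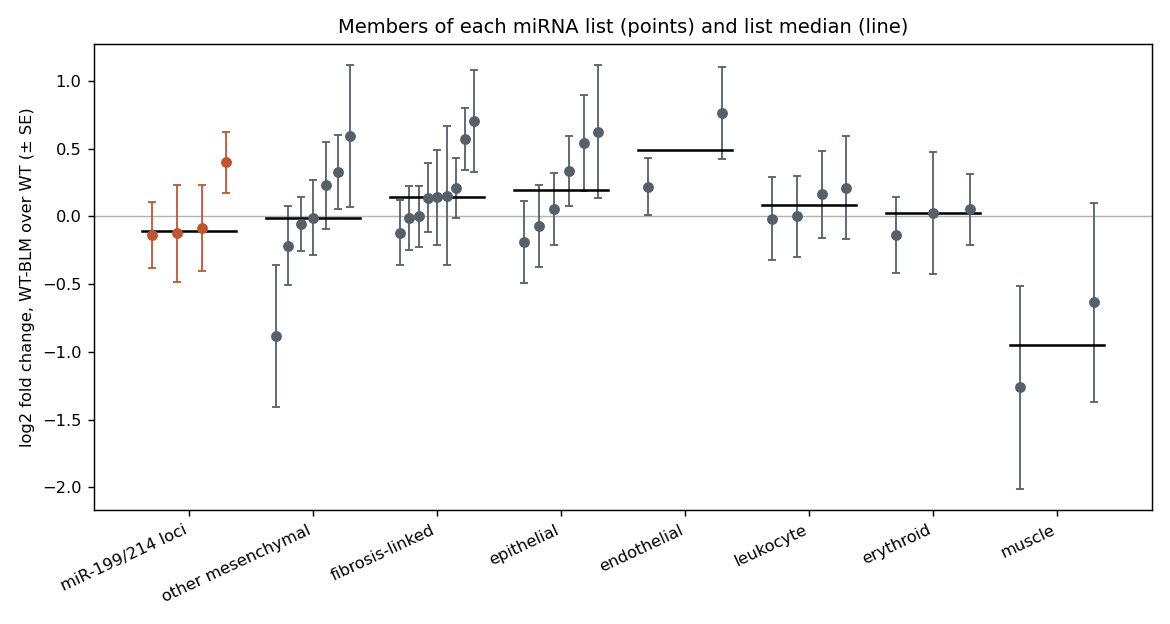
Log2 fold change (WT-BLM over WT, ± standard error) of each tested miRNA in the fixed lists, with the list median as a black line. The miR-199 and miR-214 miRNAs (orange) have 1 point above 0 and 3 below, and no list had a miRNA with an adjusted p under 0.05.

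Markers of other lung cells were set beside these values. The 6 epithelial miRNAs, of the miR-200 family and miR-375-3p, had a median log2 fold change of 0.20, which was -0.076 under scaling to the 75th percentile of probes detected on all arrays, where that of all tested miRNAs was -0.22, and summed linear levels of 5964 to 9423 in untreated WT and 7582 to 9065 in WT-BLM mice. Both strands of the endothelial miR-126a were tested, at 0.76 for miR-126a-3p and 0.22 for miR-126a-5p. The latter was detected on 3 of 6 arrays only, at a mean log2 intensity of 6.84 near the background. The median of both strands was 0.49, and it was 0.32 without untreated WT mouse 3 and 0.21 without this mouse and WT-BLM mouse 1. Their sum was 7120 to 16604 in untreated WT and 16164 to 21746 in WT-BLM mice, and miR-126a-3p was lowest in untreated WT mouse 3. The 4 leukocyte miRNAs had a median of 0.082 and sums of 4639 to 4908 and 4142 to 5717, and 3 erythroid miRNAs had a median of 0.026 and sums of 13297 to 20559 and 15713 to 20432. Each of these markers was detected on at least 3 arrays and 0 passed the test. The 6 mesenchymal markers, which include the 4 miRNAs described here, had a median of -0.11 and sums of 27929 to 35714 and 22892 to 29147. These sums add different probes, are made up mainly of miR-143-3p and miR-145a-5p, and are not a measure of the 4 miRNAs. The lowest, 22892, was that of WT-BLM mouse 1, where miR-143-3p was 11.64.

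Muscle miRNAs differed widely between mice. Of the 3 listed, 2 were tested, with a median log2 fold change of -0.95 that was -0.14 without untreated WT mouse 2, and their summed level with miR-206-3p was 1050 to 11009 in untreated WT and 1316 to 1986 in WT-BLM mice. The skeletal muscle miR-206-3p stood at 10.32 in untreated WT mouse 2 and at 6.12 to 6.44 in the others, and was detected in untreated WT mouse 2 only. That mouse also had the second-lowest level of all 6 for miR-199b-5p, miR-199a-3p and miR-214-3p, but the highest untreated WT level of miR-199a-5p. Without it the log2 fold change of miR-199a-5p was 0.49 and that of miR-199a-3p was -0.33. The part of muscle RNA or of other cell types in the values of the miR-199 and miR-214 miRNAs was not tested.

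The miRNAs whose profile over the 6 arrays was closest to the mean profile of the 4 were found by the root mean square difference of centred log2 values. The closest was miR-145a-5p, at 0.113, followed by miR-335-5p at 0.135, miR-31-3p at 0.140, miR-6236 at 0.140 and miR-27b-3p at 0.147. Of these, miR-31-3p and miR-6236 were detected on 3 of 6 arrays only, with mean log2 intensities of 6.80 and 6.83 near the background, where the offset flattens differences. The median over the other tested miRNAs was 0.381, and the 4 miRNAs themselves lay at 0.237 to 0.312 from their own mean. The mean profile ran from -0.20 in untreated WT mouse 2 to 0.21 in WT-BLM mouse 1. Against so flat a profile, any miRNA that hardly varies between arrays also lies close. The ranking therefore does not show that these miRNAs share a profile with the 4. The log2 fold changes of the closest miRNAs lay between -0.095 and 0.0072, each with an adjusted p of 1 in limma.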

How the data were processed

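RNA from the lungs of 3 untreated WT and 3 WT-BLM mice was hybridised to 1 array each, with groups taken from the sample titles. Per the file headers, the deposited spot values are median intensities with their spread and carry no correction. A second table by the authors gives rounded intensities after background subtraction and a normalization not given in the sources used here. Analysis used R 4.3.3 and limma 3.58.1: normexp with an offset of 50 on every spot, control spots then dropped, quantile normalization, and the mean of 2 spots per probe. This offset pulls the differences of dim probes toward 0. For 275 probes, linear models with moderated variances (lmFit, eBayes) and no block were fitted, and p was adjusted over all of them (Benjamini-Hochberg). Values without 1 mouse kept the normalized values and the tested probes. The main route from spot intensities to the limma fit was tested on simulated data. The within-mouse tests, lists, profile distances and processing alternatives were not. The nonzero changes in that simulation were larger than those of the 4 miRNAs, and discordant spots were not modelled. It therefore does not show whether changes of their size would be found. Single values and within-mouse differences were compared by exact two-sided permutation tests.

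The miRNAs and lists were chosen with earlier results of these data known. The text names the 4 miRNAs and miR-214-5p, probes that share a seed with them, list members with an unadjusted p under 0.05, without overlap or with the largest or smallest change of their list, and the 5 miRNAs closest in profile. Others named were chosen after their values were seen.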

Additional observations from a re-analysis of the deposited data

How the results depend on the processing

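Added with the data in view were 6 alternatives: the brighter of discordant spots, first spots, second spots, subtraction of empty spots, the authors' values without an offset, and removal of the 2 arrays with the most variable empty spots. Slide and scan are not in the files, so no such block was fitted. Groups of 3 mice and spots near background limit every value, and the cause of the changes below was not tested. The number of miRNAs with an adjusted p under 0.05 was 0 in every alternative, in limma and by the methods' t-test.

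The log2 fold change of miR-199a-5p kept its sign throughout (0.27 to 0.49 when single mice were left out). That of miR-199b-5p turned to 0.020 under the 75th percentile of all probes, 0.25 without discordant spots, 0.26 with the brighter spot, 0.34 with first spots, 0.27 in the authors' values with an offset of 50 and 0.29 in those values as deposited (-0.40 to 0.25 without single mice). That of miR-199a-3p turned to 0.13 without normalization, 0.19 under the 75th percentile of all probes and 0.019 with array weights (-0.33 to 0.12 without single mice). That of miR-214-3p turned to 0.036 under the 75th percentile of all probes and 0.11 without the 2 arrays (-0.26 to 0.030 without single mice).

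Under the 75th percentile of all probes the median of all tested miRNAs was 0.13, without normalization 0.063 and under that of detected probes -0.22, so part of these turns is common to all miRNAs. The number of the 4 miRNAs above 0 was 1. It was 2 without normalization, without discordant spots, with array weights, with the brighter spot, with first spots, without the 2 arrays and in the authors' values either way, and 4 under the 75th percentile of all probes (1 to 2 without single mice). The number without overlap went from 1 to 0 without normalization, under both 75th percentiles, cyclic loess, the brighter spot and second spots. Of all miRNAs, the number with an unadjusted p under 0.05 in limma was 5. It was 8 under the 75th percentile of detected probes, cyclic loess and first spots, 2 under the 75th percentile of all probes and second spots, 46 without a filter, 1 among probes detected on all 6 arrays, 12 with a robust SD, 14 with array weights, 17 without the 2 arrays, 9 by the methods' t-test when paired (7 unpaired), and 1 to 21 without single mice (21 without untreated WT mouse 3, 12 without untreated WT mouse 1, 3 without WT-BLM mouse 1 and 1 without WT-BLM mouse 3).

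The median of the 4 miRNAs, -0.11, became 0.047 without normalization, 0.051 with the brighter spot, 0.12 under the 75th percentile of all probes, 0.080 without discordant spots, 0.11 (offset 50) or 0.12 (no offset) in the authors' values and 0.12 with first spots (-0.25 to 0.082 without single mice). That of the mesenchymal markers became 0.047 without normalization and 0.12 under the 75th percentile of all probes (-0.25 to -0.043 without single mice). That of the epithelial markers, 0.20, became -0.076 under the 75th percentile of detected probes and -0.020 with first spots. The muscle median was 0.11 in the authors' values without an offset.

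The within-mouse shift of miR-199a-5p minus miR-199b-5p turned to -0.019 without discordant spots and -0.074 with the brighter spot. That of miR-199b-5p minus miR-199a-3p turned to 0.33 without discordant spots, 0.35 with the brighter spot, 0.43 with first spots, and 0.32 (offset 50) or 0.33 (no offset) in the authors' values (-0.33 to 0.33 without single mice). That of miR-199b-5p minus miR-214-3p turned to -0.0056 with an offset of 16, -0.016 without normalization and under both 75th percentiles, -0.017 under cyclic loess, -0.43 with second spots, -0.030 with empty spots subtracted and -0.42 without the 2 arrays (-0.43 to 0.51 without single mice). That of miR-199a-3p minus miR-214-3p turned to -0.33 without the 2 arrays (-0.32 to 0.29 without single mice).

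Whether the replicate numbers pair the mice is not known. Deviations of same-numbered mice from their group mean correlated by 0.16, 0.028 and 0.073 over the tested miRNAs. With 3 mice per group these values cannot decide it. With the number as a block, 8 of the 275 miRNAs had an unadjusted p under 0.05 and the log2 fold changes of the 4 miRNAs were the same (0.40 for miR-199a-5p). The standard error of miR-199a-3p was 0.22 with the block and 0.32 without, while those of the rest were slightly higher with it.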
